A study of Mus musculus with 9 samples.

Results

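The 42 cell division genes described here are 18 genes of DNA replication and 24 genes of mitosis. They were chosen by symbol, as the rows of the 9 count files whose Entrez Gene identifier carries one of these symbols in the RefSeq annotation of the mouse build GRCm38.p6. All 42 were among the 18830 genes listed, and all 42 passed the filter on low counts that left 14741 genes to test. The samples were suprarenal abdominal aortas of mice, 3 libraries in each of 3 groups. One group had received angiotensin II (Ang II), a peptide that raises blood pressure, from an osmotic pump at 1000 ng/kg/min for 14 days, another had received it for 28 days, and the controls were sham mice, whose day of harvest the labels do not give. Every mouse, the shams included, carried the ApoE knock out, which makes mice prone to raised cholesterol and arterial plaque. Ang II infusion on this background is a widely used model of abdominal aortic aneurysm. The labels do not say whether the 3 libraries of a group came from separate animals. The p-values therefore rest on variation between libraries, which may not be variation between animals.

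A dividing cell first loads the MCM helicase onto its origins of replication, and E-type cyclins and E2F transcription factors then open S phase, in which the genome is copied. In the following phase the kinase CDK1 with A- and B-type cyclins, and the kinases PLK1 and Aurora A, bring the cell into mitosis, where the spindle checkpoint holds division until each chromosome is attached and the anaphase-promoting complex (APC/C) then lets it proceed. The replication genes are classical E2F targets, while many mitosis genes are repressed in resting cells by the DREAM complex and activated later through MuvB, B-MYB and FOXM1. In a healthy adult artery few cells divide, and both smooth muscle cells and leukocytes can enter the cycle when the wall is injured.

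E2F sites are known from promoters of replication genes and CHR elements with CCAAT boxes from promoters of mitosis genes, so 6 promoters of both kinds are shown. The words searched were CCAAT, which the factor NF-Y binds, TTTGAA or TTCGAA, the core of the CHR element, and TTTCCCGC, TTTGGCGC, TTTCGCGC or TTTGCCGC for E2F. The search covered both strands of the RefSeq window of 250 bases before to 50 bases after the start that its promoter table uses in GRCm38.p6, which was held for 34 of the 42 members, and overlapping matches of a motif were counted as 1. That start was the first annotated base of the gene for 21 members and lay 9 to 3852 bases inside the gene for 13, over 100 bases inside for Mcm7, Aurka, Cdc6, E2f1, E2f8 and Kif2c. Of these 34 windows, 26 (76.5%) held CCAAT, 18 (52.9%) held a CHR word and 6 (17.6%) held an E2F word, beside 38.7%, 15.5% and 3.4% of the 14839 windows of all genes in the files. A CHR word stood in 14 of 18 mitosis members (77.8%) and in 4 of 16 replication members (25.0%), and an E2F word in 1 mitosis member (5.6%), Cdk1, and in 5 replication members (31.2%). CHR and CCAAT stood together in 17 member windows (50.0%), against 6.6% of all windows. No word was found in the windows of Ccne1, E2f1, Tk1, Tyms, Birc5 and Nusap1, which says only that these letters are absent there. Below, each sequence is read 5′ to 3′ on the gene's own strand and ends before the first annotated base of the gene, with matched letters in capitals (ATTGG and TTCAAA are the reverse strand of CCAAT and TTTGAA). Mcm5 (chr8:75109259-75109467, plus strand) and Mcm6 (chr1:128359706-128359955, minus strand) stand for the helicase and hold E2F and CCAAT words. Cdk1 (chr10:69352913-69353162, minus strand) holds words of all 3 kinds. Top2a (chr11:99024200-99024439, minus strand), Mki67 (chr7:135716451-135716629, minus strand) and Ube2c (chr2:164769679-164769928, plus strand) hold CCAAT and CHR words, Top2a 6 and 4 of them. A match is a description of the letters and not a measured binding site.
Mcm5: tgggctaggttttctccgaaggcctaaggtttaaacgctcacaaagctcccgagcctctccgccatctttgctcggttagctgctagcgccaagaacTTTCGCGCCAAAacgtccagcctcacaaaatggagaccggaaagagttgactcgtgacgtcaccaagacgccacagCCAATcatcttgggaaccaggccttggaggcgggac
Mcm6: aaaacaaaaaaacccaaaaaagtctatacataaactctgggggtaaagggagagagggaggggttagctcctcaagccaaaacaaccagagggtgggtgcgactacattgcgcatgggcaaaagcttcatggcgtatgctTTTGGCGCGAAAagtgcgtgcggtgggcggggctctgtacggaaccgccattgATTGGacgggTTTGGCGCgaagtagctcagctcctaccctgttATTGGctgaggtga
Cdk1: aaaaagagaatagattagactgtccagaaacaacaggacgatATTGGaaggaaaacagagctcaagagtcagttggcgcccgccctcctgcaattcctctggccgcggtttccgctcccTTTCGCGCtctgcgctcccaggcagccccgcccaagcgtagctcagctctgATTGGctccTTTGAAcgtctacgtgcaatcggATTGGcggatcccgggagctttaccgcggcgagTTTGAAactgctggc
Top2a: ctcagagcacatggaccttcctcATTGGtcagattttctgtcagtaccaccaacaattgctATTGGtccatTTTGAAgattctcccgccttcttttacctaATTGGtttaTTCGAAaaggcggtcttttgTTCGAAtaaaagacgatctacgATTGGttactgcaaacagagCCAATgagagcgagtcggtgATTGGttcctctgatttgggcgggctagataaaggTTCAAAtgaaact
Mki67: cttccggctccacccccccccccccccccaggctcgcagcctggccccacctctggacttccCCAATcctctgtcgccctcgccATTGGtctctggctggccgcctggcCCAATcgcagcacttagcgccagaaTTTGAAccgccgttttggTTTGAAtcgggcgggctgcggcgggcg
Ube2c: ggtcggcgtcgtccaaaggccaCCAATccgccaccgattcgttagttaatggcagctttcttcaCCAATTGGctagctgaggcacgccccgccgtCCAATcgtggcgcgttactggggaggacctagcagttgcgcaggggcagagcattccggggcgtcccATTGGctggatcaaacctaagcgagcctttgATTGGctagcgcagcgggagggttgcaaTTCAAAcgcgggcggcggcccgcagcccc

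Per kb of annotated exon, Pcna and the helicase genes Mcm6, Mcm7, Mcm3 and Mcm4 had the highest levels of the members in every group. The divisor was the exon length of the gene and not that of a transcript, so the order depends on it. Rrm1, with 11.0 kb of exon, had 25.5 CPM in sham, above the 19.8 CPM of Mcm7. Pcna, the clamp that holds DNA polymerase on its template, had the highest level in each group, at 36.5 CPM per kb after 14 days, 27.5 CPM per kb after 28 days and 17.7 CPM per kb in sham (means of 3 libraries, CPM being the count scaled to library size with TMM factors). Mcm6 stood next in each group, at 11.8 CPM per kb after 14 days, 7.44 after 28 days and 6.58 in sham. The lowest members in each group were Cenpf, a kinetochore protein, at 0.277 CPM per kb after 14 days, 0.159 after 28 days and 0.0777 in sham, and Cdc25c, the phosphatase that activates CDK1, at 0.325 CPM per kb after 14 days, 0.182 after 28 days and 0.0314 in sham. The libraries held 9609690 to 14923936 counts in total. A single member had 0 to 1732 counts in a library, and 8 members had under 10 counts in at least 1 library, so their folds rest on few reads.

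Summed over the 42 members, the level was 383, 963 and 651 CPM in the 14-day replicates 1 to 3, 311, 533 and 442 CPM in the 28-day replicates, and 261, 203 and 240 CPM in the sham replicates. All 6 Ang II libraries lay above all 3 sham libraries. Pcna and the Mcm genes, 7 members, made up a large part of this sum. They had 182, 356 and 324 CPM in the 14-day replicates, 163, 248 and 195 CPM in the 28-day replicates, and 142, 109.5 and 125 CPM in the sham replicates. The mean log2 CPM, in which each member counts equally, had the same order of libraries within each group. Replicate 2 of the 14-day group was the highest of the 9 libraries for 37 members, and replicate 3 of that group for 4. Replicate 1 was the lowest of its group for 40 members at 14 days and for 41 members at 28 days. Within each Ang II group most members thus shared their lowest library. In sham the lowest library was replicate 1 for 6 members, replicate 2 for 25 and replicate 3 for 11. Although low in its group, Ang II replicate 1 exceeded the highest sham library for 36 members at 14 days and for 29 at 28 days. These orders were counted for the members only, with no share of all genes beside them.

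**Figure D1:**
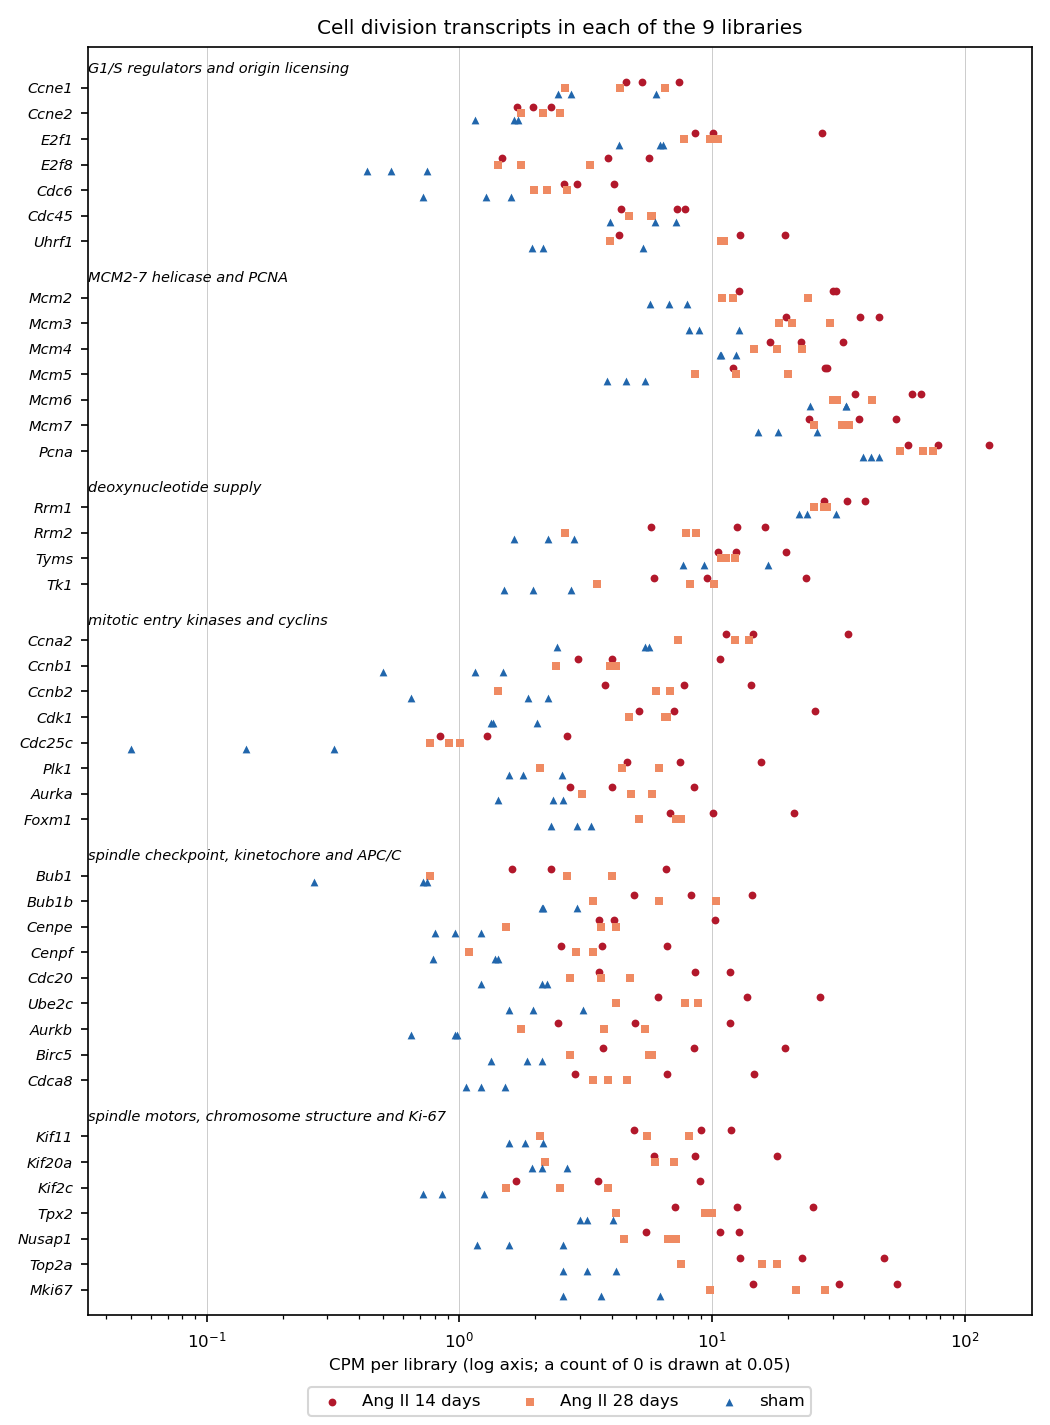
Level of each of the 42 members in CPM (log axis) in the 3 libraries of Ang II 14 days (circles), Ang II 28 days (squares) and sham (triangles), by role, with the count of 0 of Cdc25c drawn at 0.05. Most Ang II points stand right of the sham points, and the 14-day and sham points overlap for Ccne1, Ccne2, Cdc45, Rrm1, Tyms, Mcm7 and Uhrf1.

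The first comparison asked which stages of the division programme differed from sham once the pumps had run for 14 days. Each of the 42 members had a log2 fold change above 0, where 45.2% of all tested genes did, and the median member was 2.19 log2 higher, against -0.07 for all genes tested. The values ran from 0.18 for Cdc45 to 3.34 for Cdc25c. For 35 members all 3 Ang II libraries exceeded all 3 sham libraries, a pattern seen for 12.6% of all genes, and the reverse pattern held for 0 members and 13.5% of all genes. Mitosis members had a median of 2.44 log2 and replication members one of 1.25 log2. By edgeR's quasi-likelihood test with Benjamini-Hochberg adjustment over all genes, 0 members passed 0.05 and 0% of all genes did, the lowest adjusted p of a member being 0.117. At an unadjusted p under 0.05 edgeR counted 37 members as higher and 0 as lower, beside 13.1% and 10.4% of all genes, and limma-voom counted 36. DESeq2 called 36 members higher and 0 lower at an adjusted p under 0.05, beside 8.65% and 4.8% of genes, and limma-voom called 0. Whether the wall held more dividing cells or more of these transcripts in each cell cannot be told apart in RNA of whole tissue. The members named below have an edgeR adjusted p of 0.117 or more, and their SE is derived from edgeR's F in the fit over all 9 libraries.

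Among the regulators of S phase entry and origin licensing, 4 of 7 members had an unadjusted p under 0.05 at 14 days. E2f1, a transcription factor that switches on replication genes, had 10.1, 27.3 and 8.55 CPM in the 14-day replicates 1 to 3, against 6.39, 6.22 and 4.27 CPM in the sham replicates. Every 14-day library exceeded every sham library, with 1 library far above the others, and the difference was 1.44 ± 0.46 log2 (SE, edgeR adjusted p = 0.134). E2f8, an E2F repressor that is itself made in S phase, was 2.67 ± 0.61 log2 higher. Cdc6, which loads the helicase, and Uhrf1, which carries DNA methylation through replication, were higher by 1.42 ± 0.41 and 1.96 ± 0.68 log2, but replicate 1 of Uhrf1 at 4.27 CPM lay below the 5.33 CPM of sham replicate 1. The E-type cyclins, which start S phase with CDK2, differed less. Ccne1 had 4.55, 7.42 and 5.30 CPM at 14 days, against 2.45, 6.01 and 2.76 CPM in sham (0.62 ± 0.48 log2, edgeR adjusted p = 0.479). Ccne2 had 1.96, 2.31 and 1.70 CPM at 14 days, against 1.70, 1.65 and 1.16 CPM in sham (0.40 ± 0.35 log2, edgeR adjusted p = 0.536). Cdc45, which completes the active helicase, had the largest p of all members, with 4.34, 7.78 and 7.26 CPM at 14 days and 5.97, 3.93 and 7.21 CPM in sham (0.18 ± 0.34 log2, edgeR adjusted p = 0.774). The groups of these 3 genes overlapped, and the difference of Cdc45 turned to -0.029 log2 without sham replicate 2.

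All 7 members of the helicase and clamp group had an unadjusted p under 0.05 at 14 days, and 6 of them had groups that did not overlap. Mcm5, a helicase subunit, had 12.1, 27.9 and 28.4 CPM in the 14-day replicates, against 3.84, 4.58 and 5.43 CPM in the sham replicates. The lowest 14-day library had more than the highest sham library, and the difference was 2.30 ± 0.43 log2 (edgeR adjusted p = 0.117). Mcm2 had 12.8, 30.1 and 31.0 CPM at 14 days, against 7.99, 6.72 and 5.69 CPM in sham (1.86 ± 0.43 log2, edgeR adjusted p = 0.117). Mcm3 had 19.6, 45.6 and 38.6 CPM at 14 days, against 12.8, 8.08 and 8.90 CPM in sham (1.80 ± 0.36 log2, edgeR adjusted p = 0.117). The subunits therefore spanned a range, with Mcm4, Mcm7 and Mcm6 lower in it at 1.08 ± 0.28, 0.97 ± 0.32 and 0.85 ± 0.27 log2. Pcna had 59.8, 125 and 78.1 CPM at 14 days, against 45.6, 39.6 and 42.4 CPM in sham (1.04 ± 0.27 log2, edgeR adjusted p = 0.117). Of the genes that supply deoxynucleotides, those for the subunits of ribonucleotide reductase differed in size. Rrm2, the subunit whose level follows S phase, had 5.75, 16.2 and 12.5 CPM at 14 days, against 2.24, 1.65 and 2.85 CPM in sham (2.35 ± 0.56 log2, edgeR adjusted p = 0.117). Rrm1, the large subunit, was 0.41 ± 0.19 log2 higher with groups that overlapped (edgeR adjusted p = 0.240). Tk1, the thymidine kinase of S phase, was 2.64 ± 0.62 log2 higher. Tyms, thymidylate synthase, had 10.5, 19.6 and 12.4 CPM at 14 days and 16.6, 7.65 and 9.25 CPM in sham, with overlapping groups (0.34 ± 0.35 log2, edgeR adjusted p = 0.594).

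Every one of the 24 mitosis members had an unadjusted p under 0.05 at 14 days and groups that did not overlap. Cdk1, the kinase that drives entry into mitosis, had 5.12, 25.5 and 7.06 CPM in the 14-day replicates, against 2.02, 1.36 and 1.33 CPM in the sham replicates (2.99 ± 0.63 log2, edgeR adjusted p = 0.117). Its cyclin partner Ccnb1 had 2.94, 10.7 and 4.01 CPM at 14 days, against 1.49, 0.501 and 1.16 CPM in sham (2.49 ± 0.63 log2, edgeR adjusted p = 0.117). In both genes replicate 2 stood far above the other 14-day libraries. Ccnb2 and Ccna2, further cyclins of CDK1, were 2.44 ± 0.77 and 2.16 ± 0.53 log2 higher. Foxm1, the transcription factor of the mitosis genes, had 6.80, 21.2 and 10.05 CPM at 14 days, against 3.30, 2.93 and 2.31 CPM in sham (2.15 ± 0.45 log2, edgeR adjusted p = 0.117). Plk1, a kinase of mitotic entry and spindle assembly, had 4.62, 15.6 and 7.47 CPM at 14 days, against 2.56, 1.57 and 1.78 CPM in sham (2.22 ± 0.57 log2, edgeR adjusted p = 0.117). Aurka, the centrosome kinase Aurora A, had the smallest difference of the mitosis members at 1.26 ± 0.51 log2. Cdc25c had counts of 3, 2 and 0 in sham replicates 1 to 3, so its fold depends on the prior count of edgeR.

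Among the genes of chromosome attachment and of anaphase, all 9 members lay between 1.83 and 2.88 log2 at 14 days. Aurkb, the kinase Aurora B that corrects faulty attachments, had 2.45, 11.7 and 4.96 CPM in the 14-day replicates, against 0.959, 0.644 and 0.979 CPM in the sham replicates (2.88 ± 0.68 log2, edgeR adjusted p = 0.117). Birc5 (survivin) and Cdca8 (borealin), which anchor Aurora B in the chromosomal passenger complex, were 2.57 ± 0.63 and 2.66 ± 0.58 log2 higher. The kinases of the spindle checkpoint, Bub1 and Bub1b, were 2.58 ± 0.81 and 1.92 ± 0.53 log2 higher, and the kinetochore genes Cenpe and Cenpf 2.57 ± 0.58 and 1.83 ± 0.57 log2. Ube2c, the ubiquitin-conjugating enzyme of the APC/C, and Cdc20, its activator, were 2.82 ± 0.59 and 2.10 ± 0.51 log2 higher. In each of the 9, all 14-day libraries exceeded all sham libraries. Spindle motors and chromosome proteins included the member with the smallest p. Top2a (Entrez 21973, chromosome 11, 98992947 to 99024199), the topoisomerase that untangles sister chromosomes, had 12.9, 48.0 and 22.7 CPM at 14 days, against 3.20, 2.57 and 4.18 CPM in sham (3.07 ± 0.55 log2, edgeR adjusted p = 0.117). Nusap1 (Entrez 108907, chromosome 2, 119618298 to 119650165 in GRCm38.p6), which bundles spindle microtubules, had 5.47, 12.8 and 10.8 CPM at 14 days, against 1.17, 1.57 and 2.58 CPM in sham (2.44 ± 0.45 log2, edgeR adjusted p = 0.117). Mki67 (Entrez 17345, chromosome 7, 135689784 to 135716450), the gene of the proliferation antigen used to stain cycling cells, had 14.5, 53.95 and 31.8 CPM at 14 days, against 3.62, 2.57 and 6.23 CPM in sham (3.01 ± 0.61 log2, edgeR adjusted p = 0.117). In all 3 genes the lowest 14-day library was above the highest sham library. The motor genes Kif11, Kif20a and Kif2c and the spindle assembly factor Tpx2 lay between 2.13 and 2.32 log2.

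**Figure D2:**
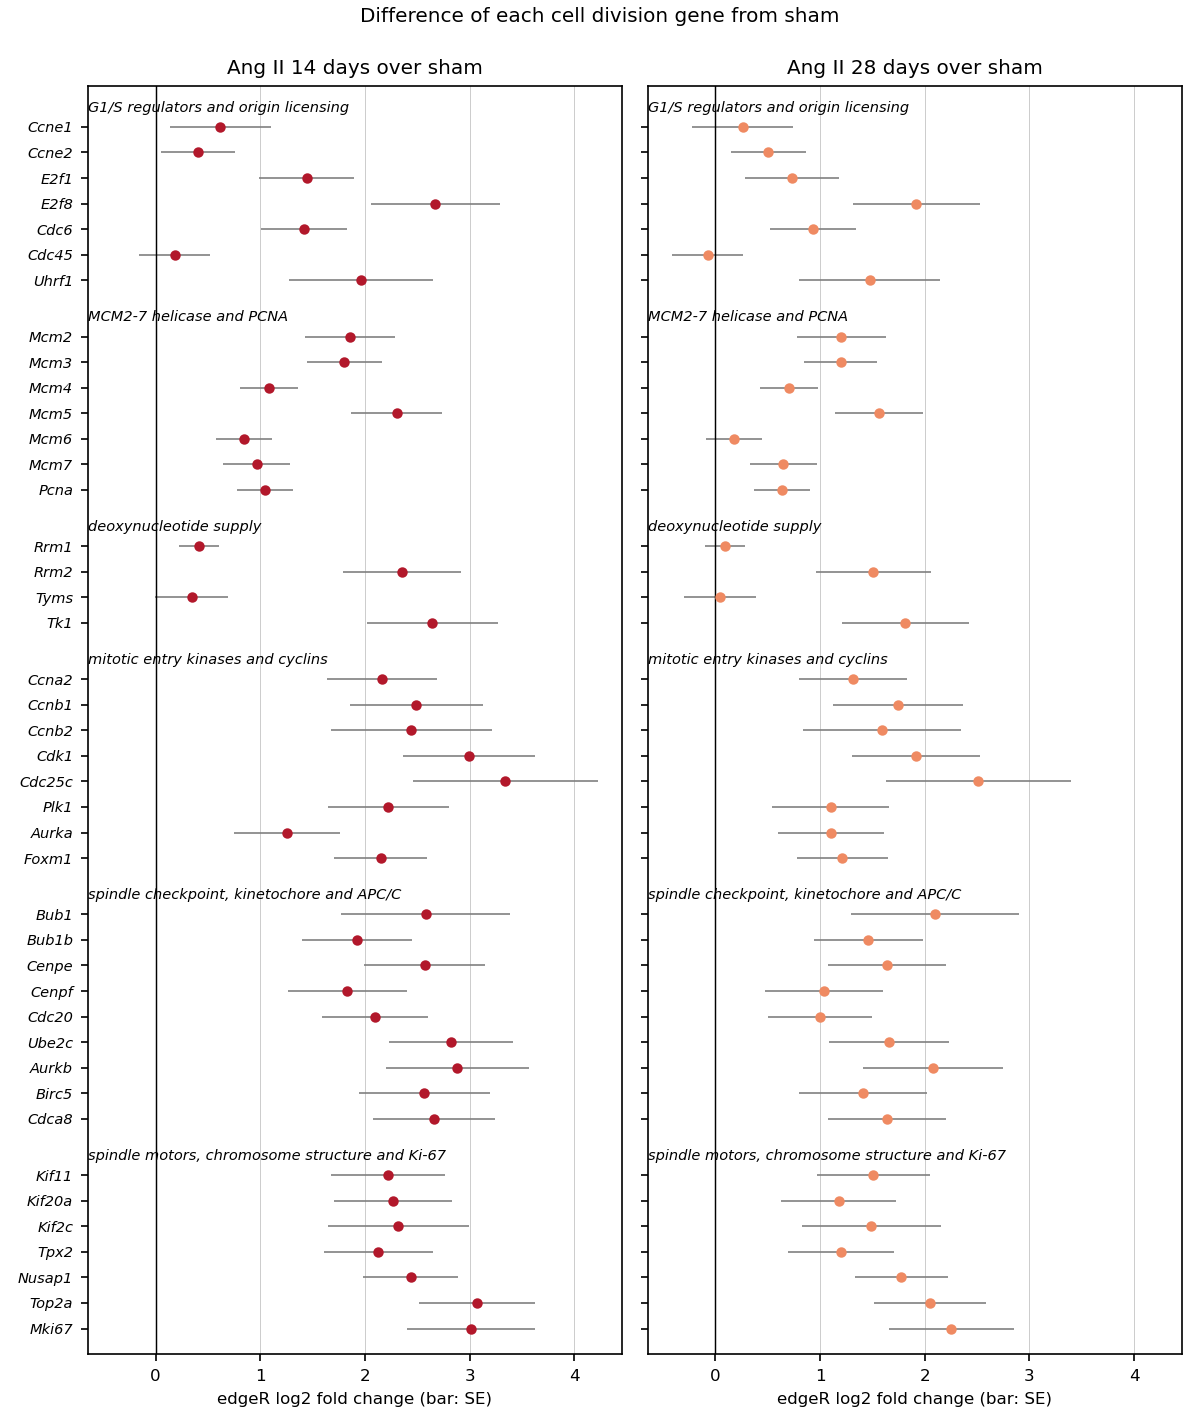
edgeR log2 fold change over sham of each member after 14 days (left) and 28 days (right) of Ang II, with bars of 1 SE, by role. Mitosis members stand at 1.26 log2 or more at 14 days, while replication members run from 0.18 to 2.67, and every member but Ccne2 stands nearer 0 at 28 days.

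After 28 days of Ang II, 41 of 42 members were above 0 in their difference from sham, where 40.7% of all genes were. The median member was 1.36 log2 higher, against -0.08 for all genes, and the values ran from -0.07 for Cdc45 to 2.51 for Cdc25c. In 29 members the 28-day and sham libraries did not overlap, all of them higher with Ang II, beside 12.2% of all genes higher and 9.46% lower. By edgeR 0 members and 0% of all genes passed at an adjusted p under 0.05 (lowest member 0.212), while 25 were higher and 0 lower at an unadjusted p under 0.05, beside 7.96% and 5.89% of all genes. limma-voom counted 8 members at the unadjusted threshold and called 0. DESeq2 called 5 members higher and 0 lower, beside 3.91% and 2.71% of genes, namely Mki67, Top2a, Nusap1, Mcm5 and Mcm3. The count of 25 rested on single libraries: it was 6 without 28-day replicate 2, 10 without sham replicate 2, and 16 without sham replicate 3 or without 28-day replicate 3. The comparisons at 14 and 28 days share the 3 sham libraries.

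At 28 days the mitosis members had a median of 1.55 log2, with 17 of 24 at an unadjusted p under 0.05, and the replication members one of 0.72 log2, with 8 of 18. Mki67 had 9.85, 27.9 and 21.5 CPM in the 28-day replicates, against the sham values given above (2.26 ± 0.59 log2, edgeR adjusted p = 0.217). Top2a had 7.55, 18.0 and 15.7 CPM at 28 days (2.05 ± 0.53 log2, edgeR adjusted p = 0.215), and Nusap1 had 4.49, 7.17 and 6.68 CPM (1.78 ± 0.45 log2, edgeR adjusted p = 0.212). All 28-day libraries of these 3 genes stood above all sham libraries, with replicate 1 lowest. Cdk1 had 4.71, 6.52 and 6.61 CPM (1.92 ± 0.61 log2, edgeR adjusted p = 0.240), and Ccnb1 had 2.41, 3.94 and 4.18 CPM (1.75 ± 0.62 log2, edgeR adjusted p = 0.267). Aurkb had 1.75, 5.45 and 3.72 CPM (2.08 ± 0.67 log2, edgeR adjusted p = 0.241). The 28-day libraries of these kinases and of the cyclin also exceeded every sham library. Foxm1 had 5.14, 7.17 and 7.52 CPM (1.21 ± 0.44 log2, edgeR adjusted p = 0.271). Plk1 had 2.08, 6.16 and 4.40 CPM, and its replicate 1 lay below the 2.56 CPM of sham replicate 1 (1.10 ± 0.56 log2, edgeR adjusted p = 0.463). Beside Plk1, the mitosis members with an unadjusted p of 0.05 or more were Ccnb2, Aurka, Cenpf, Cdc20, Kif20a and Kif2c.

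Among the replication members at 28 days, Mcm5 had 8.54, 20.0 and 12.5 CPM, all above sham (1.56 ± 0.42 log2, edgeR adjusted p = 0.217). Mcm2 had 10.9, 23.9 and 12.1 CPM (1.203 ± 0.42 log2, edgeR adjusted p = 0.263), and Mcm3 had 18.4, 29.2 and 20.7 CPM (1.198 ± 0.35 log2, edgeR adjusted p = 0.221). Other helicase genes had smaller differences, down to 0.18 ± 0.27 log2 for Mcm6, whose 30.0, 42.9 and 31.3 CPM overlapped the 33.8, 24.5 and 33.9 CPM of sham. Pcna had 55.4, 74.8 and 68.0 CPM and did not overlap sham (0.64 ± 0.27 log2, edgeR adjusted p = 0.339). Rrm2 had 2.63, 8.60 and 7.90 CPM, with replicate 1 inside the sham range (1.51 ± 0.55 log2, edgeR adjusted p = 0.275). E2f1 had 7.77, 10.5 and 9.79 CPM, all above sham (0.73 ± 0.45 log2, edgeR adjusted p = 0.565). Ccne1 had 2.63, 6.52 and 4.33 CPM (0.26 ± 0.48 log2, edgeR adjusted p = 0.911), and Ccne2 had 1.75, 2.15 and 2.51 CPM (0.51 ± 0.35 log2, edgeR adjusted p = 0.638). Tyms had 10.8, 12.3 and 11.4 CPM (0.05 ± 0.35 log2, edgeR adjusted p = 0.975), and Cdc45 had 5.80, 5.73 and 4.71 CPM (-0.07 ± 0.34 log2, edgeR adjusted p = 0.960). Of these 4 genes only Ccne2 had 28-day libraries that all exceeded sham.

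Set directly against 14 days, the 28-day mean was lower in 41 of 42 members, and it lay between the 14-day and the sham mean in 40. The median difference was -0.75 log2, against -0.05 for all genes, with values from -1.16 to 0.11, and 1 member, Ccne2, was above 0, beside 44.8% of all genes. In edgeR 0 members and 0% of all genes passed at an adjusted p under 0.05, and 1 member was lower and 0 higher at an unadjusted p under 0.05, beside 2.27% and 3.86% of all genes. This was Mcm6, at 30.0, 42.9 and 31.3 CPM after 28 days and 36.9, 66.8 and 62.0 CPM after 14 days (-0.67 ± 0.27 log2, edgeR adjusted p = 0.770), and its groups overlapped. DESeq2 called 0 members, beside 0.594% of genes higher and 0.212% lower, with 4 at its unadjusted p under 0.05, and limma-voom called 0 with 1. In 0 members did the libraries of the 2 times fail to overlap, while 5.71% of all genes had all 28-day libraries below all 14-day libraries and 4.35% had them above. Top2a differed by -1.02 ± 0.51 log2 (edgeR adjusted p = 0.774), Plk1 by -1.12 ± 0.55 (edgeR adjusted p = 0.774), Foxm1 by -0.94 ± 0.43 (edgeR adjusted p = 0.770) and Mki67 by -0.76 ± 0.56 (edgeR adjusted p = 0.789). The median shrank to -0.27 log2 without 14-day replicate 2, the library with the highest levels. Without 14-day replicate 1, the lowest of its group, 15 members were lower at an unadjusted p under 0.05.

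With both times averaged against sham, the median member was 1.72 log2 higher, against -0.08 for all genes, and 42 members were above 0, beside 42.7% of all genes. By edgeR 0 members and 0% of all genes passed at an adjusted p under 0.05 (lowest member 0.1253), and 36 members were higher and 0 lower at an unadjusted p under 0.05, beside 11.4% and 10.1% of all genes, with 30 by limma-voom, which called 0. All 6 Ang II libraries exceeded all 3 sham libraries in 28 members, beside 8.57% of all genes, and lay below them in 0 members, beside 3.97%. DESeq2 called 32 members higher and 0 lower, beside 7.92% and 4.35% of genes.

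Other genes of the same pathways, listed by their textbook function, were read in the same fit. At an unadjusted p under 0.05, 13.1% of all genes were higher and 10.4% lower at 14 days, and 7.96% and 5.89% at 28 days. Of 28 further mitosis genes, 26 were higher and 0 lower at 14 days, and 15 higher and 1 lower at 28 days. Their medians were 2.51 and 1.52 log2. At 14 days 26 were above 0, the lowest gene was at -0.49 log2, and 1 had all 14-day libraries below all sham libraries. With both times averaged 22 were higher and 2 lower, beside 11.4% and 10.1% of all genes. Kif4, a chromosome-bound motor, and Aspm, a spindle pole protein, had the smallest p at 14 days, at 2.60 ± 0.52 and 2.39 ± 0.48 log2, and Kif23, a motor of cytokinesis, and Ndc80, which ties kinetochores to microtubules, had the smallest p at 28 days, at 1.75 ± 0.48 and 1.92 ± 0.53 log2. The 1 gene lower at 28 days was Anln (anillin, -0.95 ± 0.27 log2), a scaffold of the cleavage furrow, named after its value was seen. Of 26 further replication genes, 14 were higher and 0 lower at 14 days, and 8 higher and 0 lower at 28 days, with medians of 0.76 and 0.46 log2. Cdt1, which loads the helicase together with Cdc6, was 3.13 ± 0.67 log2 higher at 14 days and 2.22 ± 0.65 log2 higher at 28 days. Clspn, an adaptor of the replication checkpoint, was 3.03 ± 0.67 log2 higher at 14 days, and Pola2, a subunit of the priming polymerase, was 0.86 ± 0.24 log2 higher at 28 days. The smaller median of replication genes than of mitosis genes was thus seen in these lists as among the members, and both are descriptions.

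The other cell cycle regulators listed here had smaller median differences than the replication and mitosis genes. The regulators E2f1, E2f8 and Foxm1 were counted among the members, at 1.44, 2.67 and 2.15 log2 at 14 days. The contrast therefore depends on how the lists were drawn. A list of 25 genes held D-type cyclins, CDKs, other E2F factors, Rb and MuvB proteins, and Cdc25a, Cdc25b and Wee1. Of these, 4 were higher and 1 lower at an unadjusted p under 0.05 at 14 days. At 28 days 3 were higher and 1 lower, and the medians were 0.22 log2 at 14 days and 0.06 log2 at 28 days. Of all genes 13.1% were higher and 10.4% lower at 14 days, and 7.96% higher and 5.89% lower at 28 days, so these counts lie near the background. Rbl1, the E2F-binding repressor p107, was 1.23 ± 0.32 log2 higher at 14 days, and Cdk2, the partner of E-type cyclins, 0.53 ± 0.19 log2. E2f7, a repressor close to E2f8, was 1.05 ± 0.37 log2 higher at 28 days, and Ccnd2, the gene of cyclin D2, had -0.83 ± 0.26 log2. Ccnd1, the gene of cyclin D1, had 91.7, 123 and 64.2 CPM in the 14-day replicates, 52.8, 96.5 and 64.0 CPM in the 28-day replicates, and 21.6, 80.8 and 36.8 CPM in the sham replicates. Its groups overlapped at both times (1.00 ± 0.49 log2 at 14 days, edgeR adjusted p = 0.259, and 0.61 ± 0.49 log2 at 28 days, edgeR adjusted p = 0.698). Of 7 CDK inhibitor genes 1 was higher and 0 lower at 14 days, and 0 either way at 28 days, close to the same background share at 14 days. That gene was Cdkn2a, which encodes p16 and p19ARF, at 0.350, 6.99 and 0.747 CPM in the 14-day replicates against 0.320, 0.215 and 0.267 CPM in the sham replicates (3.30 ± 1.10 log2, edgeR adjusted p = 0.142), with replicate 2 far above the others. Cdkn1a, the gene of p21, was within -0.04 ± 0.48 log2 at 14 days and -0.19 ± 0.48 log2 at 28 days. Cdkn1c (p57) had -0.49 ± 0.36 and -0.07 ± 0.36 log2, and Cdkn2b (p15) 0.61 ± 0.48 and -0.22 ± 0.48 log2, at 14 and 28 days. Cdkn2d, an inhibitor of CDK4 and CDK6, had 0.50 ± 0.34 log2 at 14 days.

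**Figure D3:**
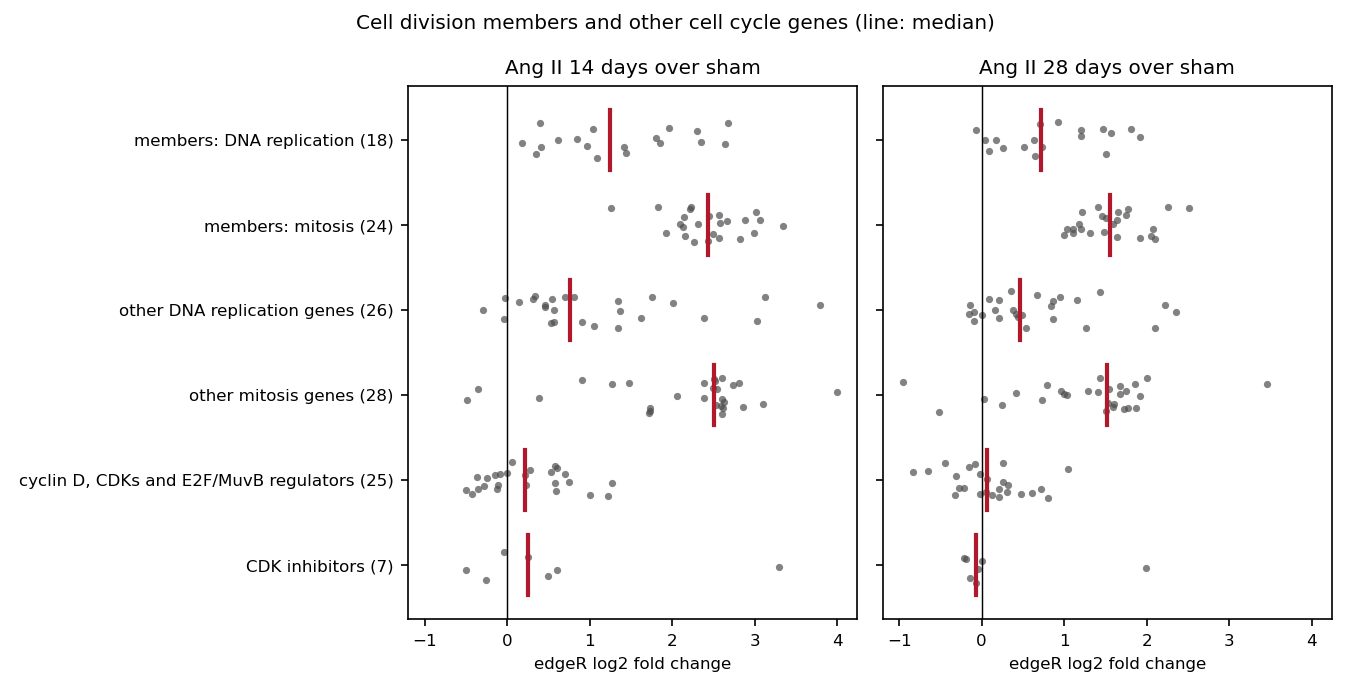
edgeR log2 fold change over sham of each gene (points) and the list median (line) for the replication and mitosis members and 4 lists of other cell cycle genes, after 14 days (left) and 28 days (right) of Ang II. The mitosis lists have medians of 2.44 and 2.51 at 14 days, and the replication lists 1.25 and 0.76. The medians of the regulators and CDK inhibitors are 0.22 and 0.26 at 14 days, and 0.06 and -0.07 at 28 days. Their single genes run from -0.50 to 1.27 and from -0.49 to 3.30 at 14 days.

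Most tested markers of macrophages, T cells, B cells and neutrophils were also higher than in sham, but their sums did not always follow the member sums between libraries. The part of any cell type in the result was not tested. Of 15 macrophage and monocyte genes, 13 were higher at an unadjusted p under 0.05 at 14 days and 6 at 28 days. The shares of all genes higher at this threshold were 13.1% at 14 days and 7.96% at 28 days. The summed level of the 15 genes was 3282, 18762 and 3311 CPM in the 14-day replicates, 3065, 3872 and 5208 CPM in the 28-day replicates, and 2228, 557 and 1179 CPM in the sham replicates. The highest macrophage level thus stood in 14-day replicate 2, the library with the highest level of 37 members, while 14-day replicates 1 and 3 had nearly equal macrophage sums and member sums of 383 and 651 CPM. Adgre1, which encodes F4/80, had 54.2, 322 and 27.4 CPM in the 14-day replicates and 59.4, 62.3 and 91.9 CPM in the 28-day replicates, against 16.5, 15.9 and 22.7 CPM in sham. Ptprc, the leukocyte antigen CD45 and not specific to macrophages, was also in this list and part of its sum. It had 54.5, 191 and 368 CPM in the 14-day replicates and 48.1, 247 and 108 CPM in the 28-day replicates, against 23.4, 12.8 and 20.3 CPM in sham.

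Of 11 T cell genes, 11 were higher at 14 days and 9 at 28 days. Their sum was 270, 507 and 1201 CPM in the 14-day replicates, 130, 535 and 283 CPM in the 28-day replicates, and 78.0, 176 and 90.9 CPM in the sham replicates. Of 9 tested B and plasma cell genes, 9 were higher at each time. Sums over the 10 listed were 111, 125 and 1627 CPM in the 14-day replicates, 61.5, 1540 and 289 CPM in the 28-day replicates, and 28.3, 10.1 and 10.9 CPM in the sham replicates. At 28 days both sums had the order of the member sums, lowest in replicate 1 and highest in replicate 2. At 14 days both were lowest in replicate 1, as the member sum was, but highest in replicate 3. In sham the B cell sums had the member order and the T cell sums the reverse order. Genes of the macrophage, T cell and B cell lists were above 0 in all 9 libraries. The highest B cell and lymph node stroma sums stood in 14-day replicate 3 and 28-day replicate 2, where Cd79a of the B cell receptor had 509 CPM in the 14-day and 344 CPM in the 28-day library, and Cd3e of the T cell receptor had 55.5 CPM in the 14-day and 13.8 CPM in the 28-day library. Without 14-day replicate 3 and 28-day replicate 2, a setting chosen after the data were seen, the median member was 2.26 log2 higher at 14 days with 34 members at an unadjusted p under 0.05, and 1.08 log2 higher at 28 days with 6. Of 4 tested neutrophil genes, 4 were higher at each time. Sums over the 8 listed neutrophil genes were 20.9 to 84.3 CPM at 14 days, 23.2 to 49.3 CPM at 28 days and 5.01 to 11.0 CPM in sham. Of 5 tested red cell precursor genes, 3 were higher at 14 days and 4 at 28 days. Sums over the 8 listed of these were 890 to 1661 CPM at 14 days, 393 to 1286 CPM at 28 days and 329 to 388 CPM in sham. The defining genes Klf1 and Gata1 were at 12 counts or fewer in every library. All these counts of higher genes stand beside 13.1% of all genes at 14 days and 7.96% at 28 days.

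Resident cells of the wall were read in the same way. Contractile smooth muscle genes, which the media of the aorta shares with smooth muscle of other organs, were abundant in every library, with sums of 17966, 3850 and 13070 CPM in the 14-day replicates, 7600, 2876 and 2266 CPM in the 28-day replicates, and 31506, 10364 and 22199 CPM in the sham replicates. Of these 12 genes 1 was lower at an unadjusted p under 0.05 at 14 days and 10 at 28 days. Acta2, smooth muscle actin, was -0.80 ± 0.67 log2 at 14 days and -2.53 ± 0.70 log2 at 28 days. Within the 14-day group the library with the highest member sum, replicate 2, had the lowest smooth muscle sum. Within the 28-day group replicate 1 had the lowest member sum and the highest smooth muscle sum. The highest member sum of that group stood in replicate 2, but the lowest smooth muscle sum in replicate 3. In sham both sums had the same order, highest in replicate 1 and lowest in replicate 2. Of 11 fibroblast genes 6 were higher at 14 days and 3 at 28 days, and Pdgfra, a fibroblast receptor, was 0.64 ± 0.33 and 0.42 ± 0.33 log2 higher at these times. Of 9 endothelial genes 1 was higher at 14 days and 4 at 28 days, with sums of 852 to 1920 CPM at 14 days, 1141 to 1940 CPM at 28 days and 886 to 1202 CPM in sham, and Pecam1, an endothelial adhesion molecule, was 0.15 ± 0.37 log2 higher at 14 days and 0.12 ± 0.37 log2 higher at 28 days. Brown and white adipocyte genes had sums of 7065, 3103 and 8846 CPM in the 14-day replicates, 16446, 7586 and 14734 CPM in the 28-day replicates, and 14673, 11078 and 18810 CPM in the sham replicates. All 14-day sums lay below all sham sums, with the lowest in replicate 2, where the member sum was highest, and of these 10 genes 4 were lower at 14 days and 0 at 28 days. Of 11 nerve and Schwann cell genes 1 was lower at each time. Of all genes tested, 13.1% were higher and 10.4% lower at this threshold at 14 days. At 28 days these shares were 7.96% and 5.89%. A count of 1 gene in these lists at 14 days is therefore close to the background. Skeletal muscle genes, which belong to no cell of the aortic wall, had sums of 8.28 to 22.2 CPM at 14 days, 18102, 5982 and 130 CPM in the 28-day replicates 1 to 3, and 6.44 to 46.5 CPM in sham, so that the 28-day library with the lowest member sum had the most of them. These sums exceeded the smooth muscle sums in 28-day replicates 1 and 2, and the sample titles name muscle where the source and tissue labels name the aorta. Without 28-day replicate 1, 32 members had an unadjusted p under 0.05 at 28 days, and without replicate 2 there were 6.

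**Figure D4:**
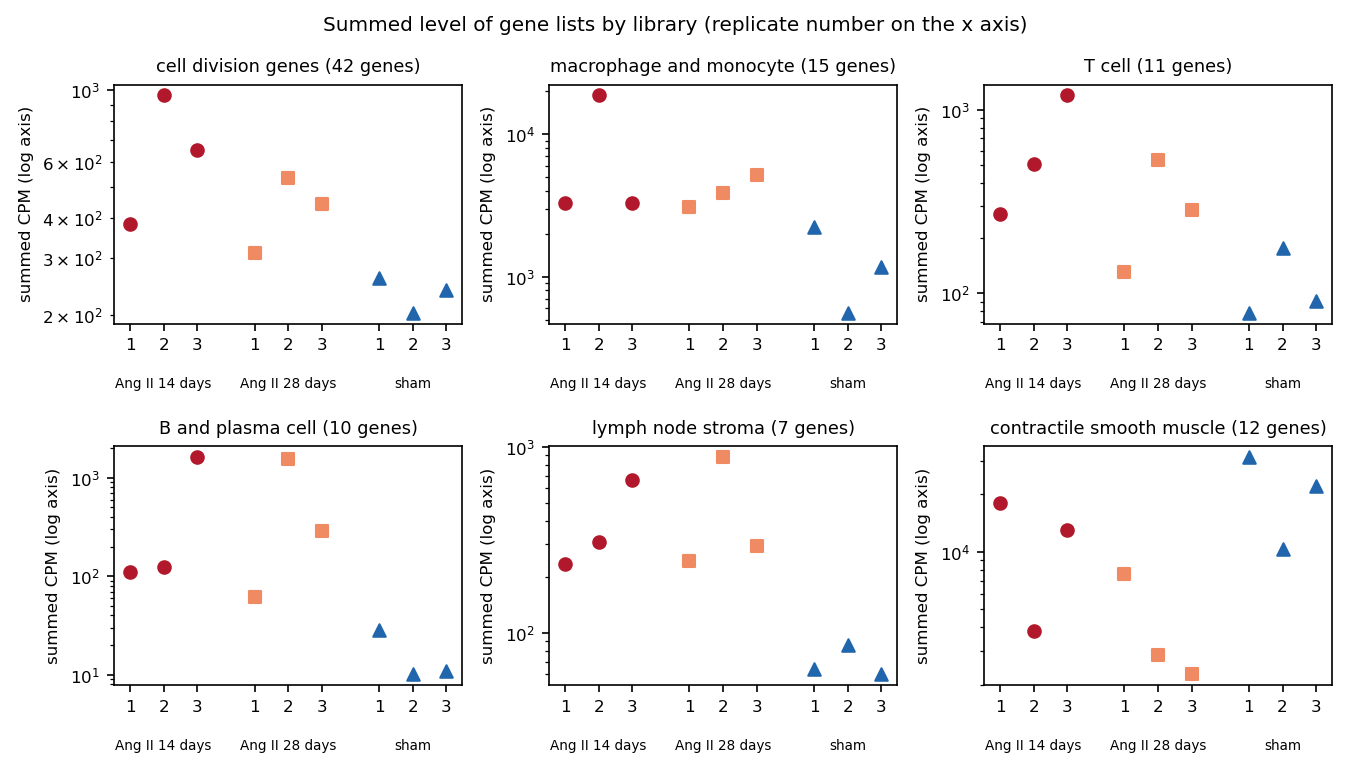
Summed CPM (log axis) of the 42 members and of 5 cell type lists in each library of Ang II 14 days (circles), Ang II 28 days (squares) and sham (triangles), with the replicate number on the x axis. The member sum is highest in 14-day replicate 2 (963 CPM), where the macrophage sum is also highest (18762 CPM), and B cell and lymph node sums are highest in 14-day replicate 3 and 28-day replicate 2.

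Reads of some members could have been assigned elsewhere. Counts were not whole for 5 members, Ccne2, Tyms, Tk1, Ccna2 and Kif20a, which marks reads shared with other genes or copies. The annotated spans of 16 members overlap another RefSeq gene, as Mcm7 does with Ap4m1 and 3 miRNA genes, Kif20a with Cdc23 and Brd8, and Nusap1 with Oip5. Strandedness is not given in the sources used here, so reads of overlapping genes cannot be told apart for these members.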

How the data were processed

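RNA of mouse aorta was extracted with TRIzol and made into 9 libraries with an MGIEasy mRNA kit, per the labels' protocols. The authors deposited expected counts per Entrez gene, 1 file per library. HISAT2 2.2.1, Bowtie2 2.4.5, RSEM 1.3.1 and the build GRCm38.p6 are named per the submitters' processing notes, but neither the aligner behind the counts nor the strandedness is stated there. In each library 9.77% to 11.0% of genes had counts that were not whole.

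Expected counts were rounded. Symbols and positions come from RefSeq GRCm38.p6, which matched 18775 of 18830 genes, and promoter windows from RefSeq for the same build. Levels per kb divide by the annotated exon length of the gene. After filterByExpr, 14741 genes were fitted in edgeR 4.0.16 (R 4.3.3) with TMM factors and robust glmQLFit, 1 coefficient per group over 9 libraries, and Benjamini-Hochberg adjustment over all genes at 0.05. Fold changes use a prior count of 0.125. The biological coefficient of variation was 51.3%. The SE is the fold change over the root of edgeR's F. Libraries of a group differed beyond counting noise (chi-square per degree of freedom 61.5 to 233), so none was counted as a duplicate. Groups do not overlap where all 3 values of one exceed all 3 of the other. An exact permutation of 3 against 3 cannot give p under 0.1 and was not used.

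The members and lists were chosen with earlier results of these data known. Per-library values are given for 14 members fixed by role, and for the 4 smallest and 2 largest p in each comparison with sham; pathway genes are 5 fixed ones and the 2 smallest p of each list. Alternatives were DESeq2 1.42.0, voom of limma 3.58.1, RLE factors, other filters, fits of the groups compared alone, a block for the replicate number and leaving out each library. The fit was also run on simulated data, but the outcome is not given here, so its power at these folds is not shown. Values of 2 cell type markers are not reported here.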

Additional observations from a re-analysis of the deposited data

How the results depend on the processing

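The median difference of the members kept its direction in every setting. Their counts at an unadjusted p under 0.05 at 14 days stayed within 1.5 times of 37. DESeq2 called 1970, 970, 118 and 1797 genes at 14 days, at 28 days, for 28 against 14 days and for the mean of both times, where edgeR called 0; of members it called 36, 5, 0 and 32, and 4 were lower at its unadjusted p for 28 against 14 days. limma-voom counted 8 members at 28 days in place of 25. Same-numbered libraries of different groups correlated between -0.553 and 0.646, so the numbers were not taken as pairs; with the replicate block the medians were 2.003, 1.23, -0.72 and 1.58 log2, and 1 gene was called at 14 days and 1 for the mean, none of them a member. Fits of the groups compared called 1 gene at 14 days, and 0 members were lower for 28 against 14 days. Without the 2 libraries of highest B cell and lymph node level, 6 members were counted at 28 days and 0 were lower for 28 against 14 days (medians 2.26, 1.08, -1.11 and 1.63 log2).

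Leaving out each library gave medians of 1.67 to 2.48 log2 at 14 days, 1.08 to 1.61 at 28 days, -1.07 to -0.27 for 28 against 14 days and 1.48 to 1.87 for the mean. The members counted ran from 35 to 38 at 14 days, 6 to 32 at 28 days and 29 to 37 for the mean, and those lower for 28 against 14 days from 0 to 15. Genes called ran from 0 to 7 at 28 days (7 without 28-day replicate 3, 5 without sham replicate 2) and 0 to 5 for the mean (5 without sham replicate 2). Differences near 0 changed sign: over these settings at 28 days Rrm1 ran from -0.0060 to 0.30 log2, Tyms from -0.17 to 0.44, Cdc45 from -0.29 to 0.18, Ccne1 from -0.11 to 0.78 and Mcm6 from -0.0033 to 0.30, and at 14 days Cdc45 from -0.029 to 0.44. Without the 2 libraries of highest B cell level Ccne1, Mcm6 and Tyms were -0.10, -0.0020 and -0.0052 at 28 days. Where a count moved, the cause was not tested, except that the filter of 5 CPM in 3 libraries tests fewer members. Planned limma fits to FPKM values were not run, since no FPKM column was used here.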
